A study of Mus musculus with 6 samples.

Results

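The amino acid transporters described here are 36 genes of the solute carrier (SLC) families SLC1, SLC3, SLC6, SLC7, SLC36, SLC38 and SLC43, picked by symbol. Those taken from SLC6 are amino acid carriers. The 36 are not every gene of these families, and further carriers, Slc6a17 and Slc6a20b among them, were kept in a separate list. The symbols of the 36 genes were matched through GENCODE M21 to the Ensembl identifiers of the count tables, and each was found among the 55335 genes counted. RNA came from B16-BL6 cells, a mouse melanoma line, as 3 scrambled control cultures and 3 IFNγR1KO cultures. The control cells, given the genotype WT in the labels, had received the lentiCRISPR v2 vector with a guide against GFP, and the IFNγR1KO cells the same vector with guides against exon 1 of Ifngr1, which encodes a chain of the IFN-γ receptor. Both were selected with puromycin, and IFNγR1KO cells were grown from single clones. All 6 cultures were seeded overnight, as triplicates of the cells of each group, and no IFN-γ is named for them. The labels do not say whether the IFNγR1KO cultures are of 1 clone, so a difference between the groups and a difference between clones cannot be told apart, and the p-values measure only the spread between cultures. The question was which transporter transcripts differ in level when Ifngr1 is targeted.

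Cells take up amino acids through carriers that fall into a few working types. Many sodium-coupled carriers of SLC6 and SLC38, and some of SLC1, move neutral amino acids inward. Heterodimers couple a heavy chain of SLC3, which carries the complex to the membrane, with a light chain of SLC7, which makes the pore and mostly exchanges one amino acid for another. Carriers of SLC36, and some of SLC38, also work at the lysosome, where they hand amino acids back to the cytosol, and SLC43 carriers let large neutral amino acids pass without sodium. Several transporter genes are known targets of ATF4, the transcription factor that responds to a shortage of amino acids, and the sites it binds together with C/EBP proteins are called C/EBP-ATF response elements.

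The libraries held 9402640 to 10579788 counts on genes in scrambled control and 6698956 to 7409479 in IFNγR1KO cells, of which the 36 genes took 0.179% to 0.224% and 0.296% to 0.354%. Ifngr1 itself was counted in every library, with 154, 144 and 172 counts in control and 80, 85 and 82 in IFNγR1KO libraries, and its log2 fold change was -0.47 (SE 0.16, adjusted p = 0.0729). Here and below, a fold or log2 change is IFNγR1KO over control, and SE is the standard error of the log2 change. Adjusted p-values come from the quasi-likelihood test of edgeR, adjusted by Benjamini-Hochberg over the 13642 genes tested. CPM are counts scaled to a common library total with TMM factors. The 7 melanocyte markers summed to between 27898 and 34659 CPM in each library, while all 5 leukocyte and all 3 endothelial markers never exceeded 3 counts, the floor used here. Of the 4 fibroblast markers, Dcn was under it, Col1a1 and Col1a2 were higher in IFNγR1KO cells by 1.96 and 1.07 on the log2 scale, and Pdgfra had a log2 change of -0.77 (adjusted p = 0.0866), with all IFNγR1KO libraries under all controls. The sum of the 4, most of it Col1a2, was 57.0 to 75.4 CPM in control and 129 to 133 CPM in IFNγR1KO libraries. Of the 3 keratinocyte markers, 2 were at the floor. The part of these markers in the results that follow was not tested. In bulk RNA a change in the mix of cells and a change in RNA per cell cannot be told apart.

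Of the 36 transporter genes, 23 passed the filter on low counts and were tested, and 13 were not. Among the 23, 10 were higher in IFNγR1KO cells and 3 were lower at an adjusted p under 0.05, where 7.73% of all tested genes were higher and 7.62% lower (15.3% in all). The 36 genes were chosen with earlier results of these data known, so the shares are set side by side as a description only. The higher genes were Slc1a4, Slc1a5, Slc3a2, Slc6a9, Slc7a1, Slc7a5, Slc7a7, Slc7a11, Slc38a2 and Slc38a7, and the lower genes were Slc6a6, Slc7a8 and Slc43a1. With an absolute log2 fold change above 1 in addition, 6 were higher (3.25% of all tested genes) and 2 lower (1.96%). Such a gene is called a differentially expressed gene (DEG) here. The thresholds are the study's, but they are put on edgeR's test, where the study used DESeq2. The median log2 fold change of the 23 was 0.49, with that of all tested genes at -0.00147. For 16 of the 23, all libraries of one group lay above all of the other, as they did for 32.6% of all tested genes. Of the 23, 21 had enough counts to pass the filter in either group alone. Slc7a9 passed only through the IFNγR1KO libraries and Slc43a1 only through the control libraries, so a difference was built into how those 2 entered.

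**Figure D1:**
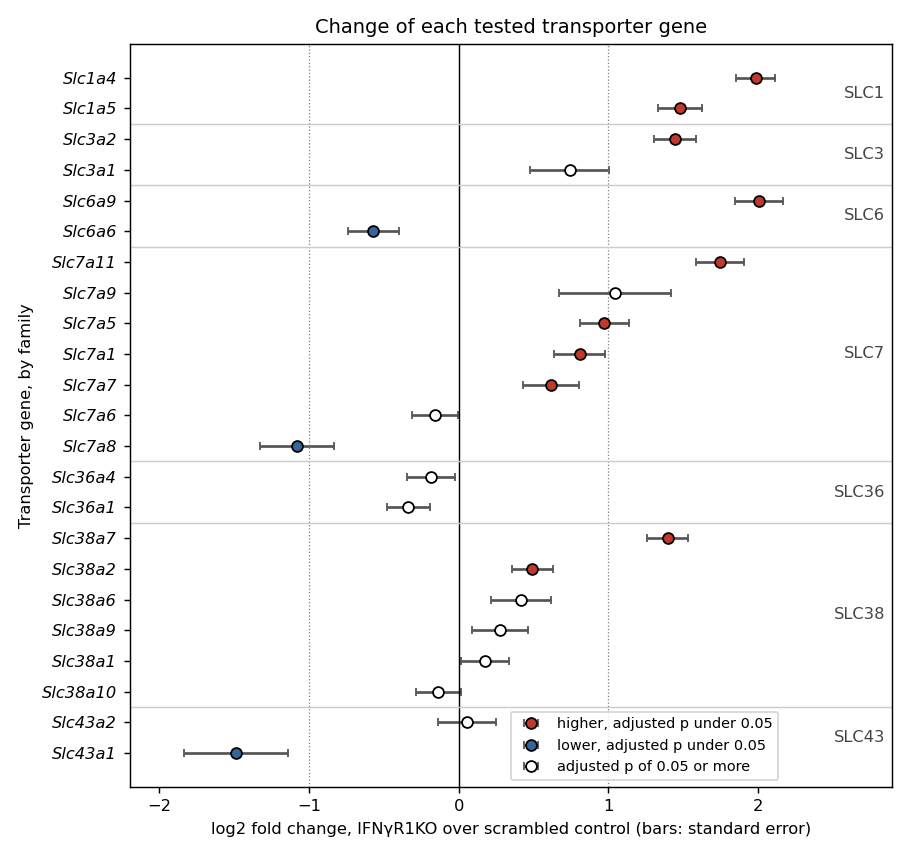
log2 fold change of IFNγR1KO over scrambled control for the 23 tested transporter genes, grouped by family, with bars for the standard error and dotted lines at a log2 fold change of 1 in either direction. Filled points passed an adjusted p of 0.05; 10 lie to the right of 0 and 3 to the left.

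The promoters of the transporter genes were searched on both strands for the core of the C/EBP-ATF response element, TGATGNAA, and its reverse complement TTNCATCA, over 300 bases around each RefSeq start site on GRCm38.p6. RefSeq promoters were matched for 25 of the 36 genes. Of these, 3 held a match: Slc1a4, Slc7a11 and Slc7a7, each of them higher in IFNγR1KO cells. That is 3 of the 8 higher genes with a promoter sequence, against 0 of the 2 lower genes, 0 of the 9 tested genes that did not pass and 0 of the 6 genes too low to test. Of all 27025 mouse genes with a promoter sequence, 4.51% held a match. Counted by promoter, it was 4 of 37 for the transporter genes and 3.97% of all 32851. Of the higher genes, 2 had no promoter sequence. Most of the 300 bases lay before the start, so elements farther upstream or deeper in the gene were not searched for. A gene without a match here can therefore still hold one elsewhere. No other motif was searched, and the difference between these shares was not tested. Slc7a7 was called higher by edgeR (adjusted p = 0.0449) but not by DESeq2 (adjusted p = 0.0662). The stretches that hold the matches are shown 5′ to 3′ on the minus strand of GRCm38.p6, with each match in capitals.
Slc1a4, chr11:20332710-20332833: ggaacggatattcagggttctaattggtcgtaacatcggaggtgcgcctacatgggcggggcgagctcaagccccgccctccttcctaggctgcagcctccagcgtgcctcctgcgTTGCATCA
Slc7a11, chr3:50443614-50443733: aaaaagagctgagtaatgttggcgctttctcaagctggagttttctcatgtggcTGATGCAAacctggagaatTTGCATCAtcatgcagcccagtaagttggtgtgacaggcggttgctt
Slc7a7, chr14:54417938-54418109: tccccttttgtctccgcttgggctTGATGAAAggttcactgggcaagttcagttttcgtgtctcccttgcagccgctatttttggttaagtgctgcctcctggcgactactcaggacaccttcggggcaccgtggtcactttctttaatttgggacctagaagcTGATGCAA
The Slc7a11 promoter held 2 matches in opposite orientation, beginning 66 and 47 bases before the start. In Slc1a4 the match ran across the start site. Slc7a7 has several RefSeq start sites, so more sequence was searched, and the one farthest upstream is shown, where the first match began 141 bases before the start and the second ran across it. The second match also lies 243 bases before another start. These are matches of letters, and the data do not measure binding.

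Levels of different genes were compared as CPM per kilobase of exonic length, taken over all annotated exons of a gene together. The transcripts in these cells can be shorter than that. The order of genes, and shares and ratios between them, depend on this choice of length. In control cells the highest was Slc3a2 with 74.1 ± 5.93 CPM per kb (SD, n = 3), followed by Slc38a10 with 57.5 ± 6.93 and Slc7a5 with 48.8 ± 8.28. Then came Slc6a6, Slc38a2, Slc7a1, Slc1a5 and Slc38a1, at means between 26.3 and 13.8 CPM per kb. The lowest tested gene was Slc7a9 with 0.318 ± 0.0581. The order was not sharp, since the libraries of 12 of the 22 neighbouring pairs overlapped, Slc38a10 with Slc7a5 and Slc7a1 with Slc1a5 among them. In IFNγR1KO cells the first 2 were Slc3a2 with 201.8 ± 6.51 and Slc7a5 with 95.9 ± 12.6 CPM per kb, and neither overlapped the next gene. Slc1a4 stood at rank 11 in control and 5 in IFNγR1KO cells, while Slc6a6 stood at rank 4 and 9. Summed over all 36 genes, the level was 315, 317 and 352 CPM per kb in control and 576, 578 and 612 in IFNγR1KO libraries, a ratio of means of 1.80. Without division by length, the log2 ratio of the sums was 0.65 in place of 0.84.

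**Figure D2:**
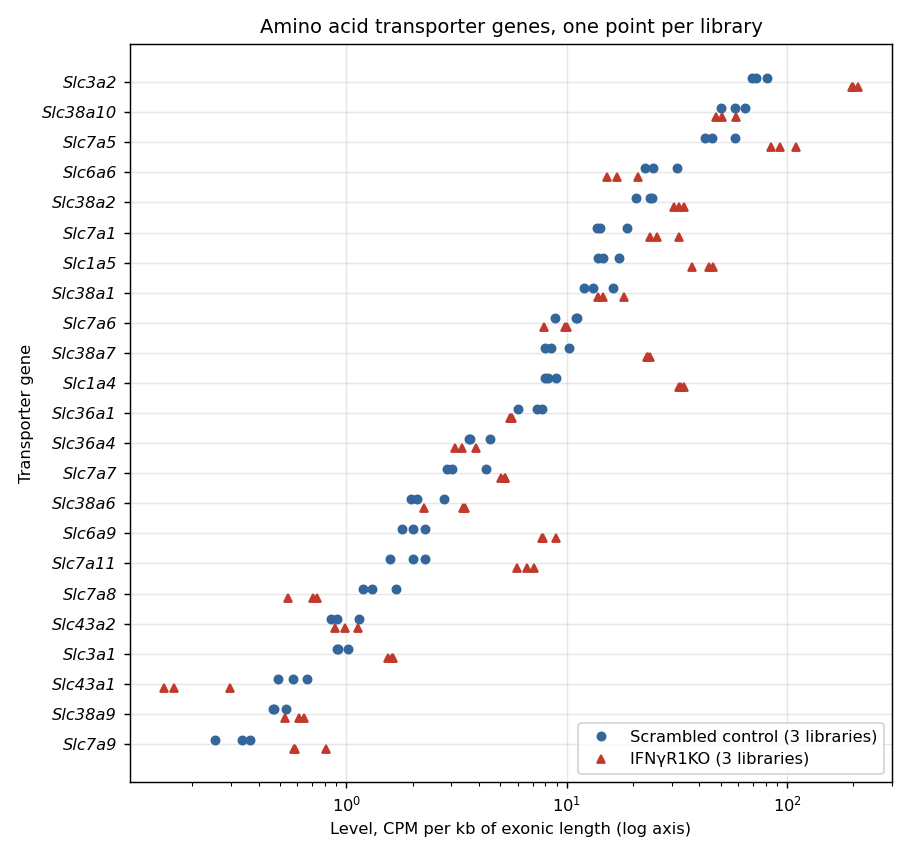
Level of each tested transporter gene in CPM per kb of exonic length on a log axis, with 1 point per library and the genes ordered by their control mean. Slc3a2 is at the top in both groups, and the IFNγR1KO libraries of Slc1a4, Slc6a9 and Slc7a11 lie clear of the control libraries to the right.

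Both SLC1 genes that the cells expressed were higher in IFNγR1KO cells. Slc1a4 (ENSMUSG00000020142.12; GRCm38 chromosome 11, 20302180 to 20332713, minus strand) encodes ASCT1, a sodium-dependent exchanger of alanine, serine, cysteine and threonine. It was at 35.0, 32.1 and 31.2 CPM in control and at 126, 129 and 134 CPM in IFNγR1KO libraries. Every IFNγR1KO library was more than 3 times the highest control library. Its log2 change was 1.99 (SE 0.13, adjusted p = 1.8e-06), or 3.96-fold. Slc1a5 (chromosome 7, 16781340 to 16798274, plus strand) encodes ASCT2, the related exchanger that also takes glutamine. It was at 71.9, 60.9 and 57.7 CPM in control and 192, 184 and 155 CPM in IFNγR1KO libraries. Its groups lay well apart as well, with IFNγR1KO library 12 the lowest of its group. Its log2 change was 1.48 (SE 0.15, adjusted p = 5.46e-05). Per kb, Slc1a5 stood at 1.93, 1.78 and 1.74 times Slc1a4 in control and at 1.43, 1.34 and 1.09 times in IFNγR1KO libraries, so Slc1a4 was the larger part of the pair's sum in no library. The glutamate carriers Slc1a1, Slc1a2 and Slc1a3 had no count in any of the 6 libraries.

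Slc3a2 (ENSMUSG00000010095.13; chromosome 19, 8706882 to 8723369, minus strand) encodes 4F2hc, also called CD98, the heavy chain shared by 6 of the SLC7 light chains listed here. Its level was 254, 285 and 245 CPM in control and 739, 699 and 699 CPM in IFNγR1KO libraries. These are 261 ± 20.9 and 712 ± 23.0 CPM (SD, n = 3), with no overlap and a log2 fold change of 1.45 (SE 0.14, adjusted p = 4.91e-05). Slc3a2 made up 22.7% of the summed level of all 36 genes in control and 34.3% in IFNγR1KO cells. The other heavy chain, Slc3a1 (rBAT), serves cystine and dibasic amino acid transport in kidney and gut. It had 19, 21 and 24 counts in control and 26, 27 and 25 counts in IFNγR1KO libraries. Its groups did not overlap in CPM, but its log2 fold change of 0.74 (SE 0.26) did not pass the test (adjusted p = 0.0781). A further limit is that 26.5% of its exonic bases lie under Prepl on the other strand, which itself was higher by 0.55 (adjusted p = 0.0292), and the strand setting of the counting is not given in the sources used here. Slc7a9, the light chain that pairs with Slc3a1, was also low, with 7 to 9 counts in control and 11 to 16 in IFNγR1KO libraries and a log2 fold change of 1.05 (SE 0.37, adjusted p = 0.0796). It passed the filter on low counts only through the IFNγR1KO libraries.

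The 6 light chains known to pair with Slc3a2 (Slc7a5, Slc7a6, Slc7a7, Slc7a8, Slc7a10 and Slc7a11) did not move as a block: 3 were higher, 1 was lower, 1 did not pass and 1 was not tested. Slc7a5 (chromosome 8, 121881150 to 121907694, minus strand) encodes LAT1, which brings in leucine and other large neutral amino acids in exchange for glutamine. It was at 157, 170.0 and 216 CPM in control and 315, 345 and 406 CPM in IFNγR1KO libraries. All IFNγR1KO libraries were above all controls, and the log2 fold change was 0.97 (SE 0.16, adjusted p = 0.00195), just short of the DEG threshold. Slc7a11 (ENSMUSG00000027737.10; chromosome 3, 49892526 to 50443614, minus strand) encodes xCT, which takes up cystine in exchange for glutamate. Its values were 28.0, 22.0 and 31.6 CPM in control and 83.0, 92.0 and 99.4 CPM in IFNγR1KO libraries. The groups were far apart, with a log2 fold change of 1.75 (SE 0.16, adjusted p = 2.59e-05), or 3.36-fold, the largest of the 7 tested SLC7 genes. Slc7a7 encodes y+LAT1, an exchanger of dibasic for neutral amino acids. It was at 9.99, 9.45 and 14.2 CPM in control and 16.8, 17.5 and 17.4 CPM in IFNγR1KO libraries. Its log2 change was 0.62 (SE 0.19, adjusted p = 0.0449), a call that DESeq2 did not make (adjusted p = 0.0662) and that was lost without control library 1 (adjusted p = 0.127) or 2 (0.159) or IFNγR1KO library 10 (0.105) or 11 (0.125). In Slc7a7, 7.0% of the exonic bases lie under Oxa1l on the other strand.

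Slc7a8 (chromosome 14, 54722209 to 54781946, minus strand), which lies on the same chromosome as Slc7a7, encodes LAT2, an exchanger of neutral amino acids with a wider range than LAT1. It was at 5.97, 6.57 and 8.41 CPM in control and 3.69, 2.71 and 3.51 CPM in IFNγR1KO libraries. It was the 1 SLC7 gene that was lower, with a log2 fold change of -1.08 (SE 0.25, adjusted p = 0.0116). The call was lost without IFNγR1KO library 11 (log2 fold change -0.94, adjusted p = 0.0715). Per kb, Slc7a7 was 2.53, 2.17 and 2.55 times Slc7a8 in control and 6.85, 9.74 and 7.49 times in IFNγR1KO libraries. Slc7a6 encodes y+LAT2, the second of the dibasic exchangers. Its 50.7, 40.5 and 50.4 CPM in control and 45.0, 45.8 and 36.1 CPM in IFNγR1KO libraries overlapped, with a log2 fold change of -0.16 (SE 0.15, adjusted p = 0.549). Slc7a10, a carrier of small neutral amino acids, had 7, 8 and 6 counts in control and 2, 6 and 1 in IFNγR1KO libraries. Its ratio of IFNγR1KO to control was 0.589, with a 95% counting interval of 0.238 to 1.34 that covers counting error only.

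As sums, the light chains together were at 66.2 ± 9.97 CPM per kb in control and 118 ± 12.1 in IFNγR1KO cells, a ratio of 1.78, against a 2.73-fold difference in Slc3a2. The level of Slc3a2 divided by that of the 6 light chains was 1.20, 1.33 and 0.894 in control and 1.96, 1.71 and 1.51 in IFNγR1KO libraries. Each IFNγR1KO library therefore lay above each control library in heavy chain per light chain. Among the light chains, Slc7a5 made up 73.6% in control and 81.3% in IFNγR1KO cells. The share of Slc7a11 was 3.35%, 2.60% and 2.92% in control and 5.58%, 5.70% and 5.46% in IFNγR1KO libraries, and the share of Slc7a6 was 15.7% and 7.98% on average. The level of Slc7a6 itself was 10.3 CPM per kb in control and 9.26 in IFNγR1KO cells, so its smaller share mostly reflects the larger sum. These shares and ratios describe transcripts and were given no test.

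**Figure D3:**
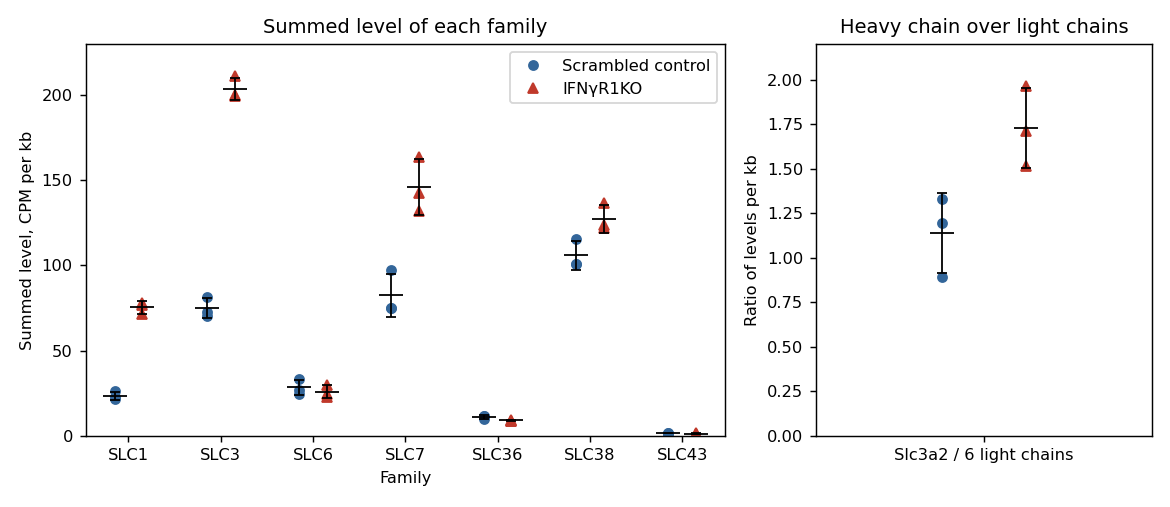
Left, level per library summed over the genes of each family among the 36, in CPM per kb of exonic length. Right, level of Slc3a2 divided by the sum of its 6 light chains. Points are libraries and bars the mean and SD of 3; SLC1, SLC3, SLC7 and SLC38 lie higher in all IFNγR1KO libraries, SLC36 lies lower in all of them, SLC6 and SLC43 overlap, and the heavy chain ratio runs from 0.894 to 1.33 in control and 1.51 to 1.96 in IFNγR1KO libraries.

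Outside the heterodimers, Slc7a1 (chromosome 5, 148327410 to 148399904, minus strand) encodes CAT1, the widely expressed carrier of arginine and lysine. It was at 163, 158 and 217 CPM in control and 274, 296 and 374 CPM in IFNγR1KO libraries. Its log2 change was 0.81 (SE 0.17, adjusted p = 0.0076), and leaving out control library 2 took it just past the threshold (log2 fold change 0.72, adjusted p = 0.0583). Of the related genes, Slc7a2 (CAT2) had no count in any library. Slc7a3 (CAT3) had 1, 3 and 1 counts in control and 8, 3 and 3 in IFNγR1KO libraries, a ratio of 3.85 with a 95% counting interval of 1.31 to 13.7. Slc7a4, whose substrate is not established, had 10, 12 and 9 counts in control and 9, 6 and 3 in IFNγR1KO libraries, with an interval of the ratio from 0.421 to 1.47. Neither Slc7a3 nor Slc7a4 was tested, and their intervals cover counting error only, not the spread between cultures. CAT1 was thus the only one of these carriers with more than 12 counts in any library.

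The carriers of large neutral amino acids, which belong to both SLC7 and SLC43, went in different directions. While Slc7a5 was higher, Slc7a8 and Slc43a1 were lower and Slc43a2 showed no difference beyond its error. Slc43a1 (ENSMUSG00000027075.16; chromosome 2, 84838850 to 84863594, plus strand) encodes LAT3, a facilitative carrier of leucine and its relatives. It had 35, 28 and 34 counts in control and 6, 7 and 12 counts in IFNγR1KO libraries, that is 3.29 ± 0.507 and 1.16 ± 0.457 CPM (SD, n = 3). All IFNγR1KO libraries lay under all controls, with a log2 fold change of -1.49 (SE 0.35, adjusted p = 0.0129). The counts were few, and Slc43a1 passed the filter on low counts only through the control libraries, so a difference was built into how it entered. The call was lost without IFNγR1KO library 10 (adjusted p = 0.0692) or 11 (0.0754). Slc43a2 encodes LAT4, of the same kind, and was at 9.12, 8.56 and 11.4 CPM in control and 8.95, 9.89 and 11.4 CPM in IFNγR1KO libraries. The groups lay on top of each other, with a log2 fold change of 0.05 (SE 0.19, adjusted p = 0.891). Slc43a3, a nucleobase carrier of this family, had at most 1 count in any library. Per kb, Slc7a5 made up 93.9%, 94.5% and 94.5% of the sum of Slc7a5, Slc7a8, Slc43a1 and Slc43a2 in control and 98.0%, 98.2% and 98.1% in IFNγR1KO libraries. The sum of the 4 was 51.8 ± 8.66 CPM per kb in control and 97.8 ± 12.7 in IFNγR1KO cells, and the 2 lower genes were a small part of it in every library.

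**Figure D4:**
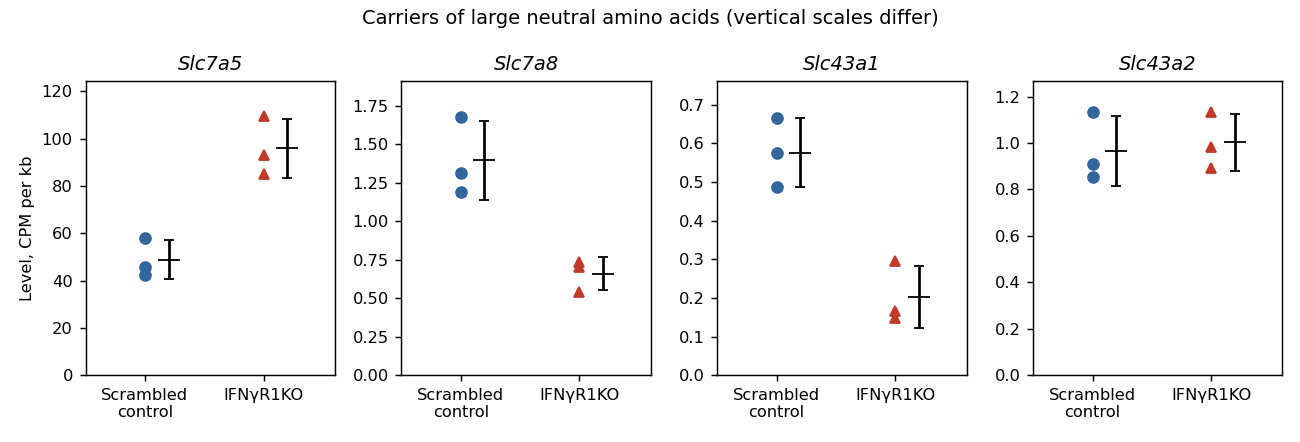
Level of the 4 carriers of large neutral amino acids in each library, in CPM per kb of exonic length, with the mean and SD of 3 beside the points; the vertical scale differs between the panels. Slc7a5 has a mean of 48.8 in control and 95.9 in IFNγR1KO cells, Slc7a8 and Slc43a1 lie lower in all IFNγR1KO libraries, and Slc43a2 overlaps.

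In SLC6, 1 gene was higher and 1 lower. Slc6a9 (ENSMUSG00000028542.17; chromosome 4, 117834506 to 117875198, plus strand) encodes GLYT1, the sodium- and chloride-dependent glycine carrier. It had 11.7, 10.3 and 9.18 CPM in control and 39.9, 39.8 and 45.8 CPM in IFNγR1KO libraries. With a log2 fold change of 2.01 (SE 0.16, adjusted p = 8.76e-06) it had the largest change of the 23 tested genes, followed by Slc1a4. Of its exonic bases, 30.2% lie under Ccdc24 on the other strand. Ccdc24 had 28 to 30 counts in control and 41 to 64 in IFNγR1KO libraries and was higher too, by 1.32 (SE 0.25, adjusted p = 0.00412), with fewer counts than Slc6a9 in every library. Slc6a6 (chromosome 6, 91684053 to 91759066, plus strand) encodes the taurine transporter TauT. It was at 209, 192 and 267 CPM in control and 129, 143 and 178 CPM in IFNγR1KO libraries. The groups did not overlap, though only 192 and 178 CPM separated them at the nearest libraries. Its log2 change was -0.57 (SE 0.17, adjusted p = 0.0389), and the call was lost without control library 1 (adjusted p = 0.0602), 2 (0.0612) or 3 (0.113) or IFNγR1KO library 10 (0.171) or 11 (0.173). Slc6a15, a carrier of branched-chain amino acids and proline known from the brain, had 7, 5 and 9 counts in control and 1, 0 and 0 in IFNγR1KO libraries. Its ratio was 0.0655, with a 95% counting interval of 0.00158 to 0.407 that covers counting error only. With so few counts Slc6a15 was not tested. Slc6a6 made up most of the summed level of the 3 SLC6 genes described here. That sum was 28.4 ± 4.51 CPM per kb in control and 25.9 ± 3.68 in IFNγR1KO cells, with overlapping groups.

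Among the sodium-coupled neutral amino acid carriers of SLC38, 2 of 6 tested genes were higher and none was lower. Slc38a7 (ENSMUSG00000036534.6; chromosome 8, 95835920 to 95853539, minus strand) encodes SNAT7, which exports glutamine and asparagine from the lysosome. It was at 42.4, 33.1 and 35.3 CPM in control and 99.0, 96.9 and 95.9 CPM in IFNγR1KO libraries. The IFNγR1KO libraries lay close together and more than 2 times above the highest control, with a log2 fold change of 1.40 (SE 0.14, adjusted p = 5.46e-05). Slc38a2 (chromosome 15, 96687392 to 96699730, minus strand) encodes SNAT2, a carrier known to be induced when amino acids are scarce. Its values were 212, 183 and 215 CPM in control and 286, 272 and 299.9 CPM in IFNγR1KO libraries. The groups did not overlap, and the log2 fold change was 0.49 (SE 0.14, adjusted p = 0.0278). This call was lost without control library 1 (adjusted p = 0.0563) or 2 (0.109) or IFNγR1KO library 10 (0.100) or 11 (0.0823). Slc38a1, which lies beside Slc38a2 and encodes the related SNAT1, was at 227, 207 and 279 CPM in control and 239, 253 and 313 CPM in IFNγR1KO libraries. Its groups overlapped, with a log2 fold change of 0.17 (SE 0.16, adjusted p = 0.529). Per kb, Slc38a2 was 1.82, 1.72 and 1.5 times Slc38a1 in control and 2.34, 2.10 and 1.87 times in IFNγR1KO libraries. Without division by length, mean CPM of Slc38a2 and Slc38a1 were 203 and 238 in control and 286 and 268 in IFNγR1KO cells.

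The other SLC38 genes did not pass the test. Slc38a10, a less studied member that had the second highest level in control cells, was at 323, 372 and 412 CPM in control and 307, 326 and 376 CPM in IFNγR1KO libraries. Its log2 fold change was -0.13 (SE 0.15, adjusted p = 0.61), and its share of the summed level of all 36 genes was 17.5% in control and 8.88% in IFNγR1KO cells. Slc38a9, the lysosomal arginine sensor of the mTORC1 pathway, was at 7.76 to 8.90 CPM in control and 8.81 to 10.7 in IFNγR1KO libraries, with a log2 fold change of 0.28 (SE 0.19, adjusted p = 0.363). Slc38a6 was at 15.3 to 21.6 and 17.6 to 27.0 CPM, with a log2 fold change of 0.42 (SE 0.20, adjusted p = 0.19). IFNγR1KO library 12 was the low one of its group, and without it Slc38a6 passed (log2 fold change 0.59, adjusted p = 0.0266). Slc38a4 had no count, Slc38a5 at most 1, and Slc38a3 had 1 count in control library 1 and 4 in IFNγR1KO library 10 only.

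Neither of the SLC36 genes tested passed. Slc36a1 encodes PAT1, which couples amino acid export from the lysosome to protons. It was at 43.5, 33.9 and 41.5 CPM in control and 31.4, 31.2 and 31.6 CPM in IFNγR1KO libraries. All IFNγR1KO libraries lay under all controls, but the log2 fold change of -0.34 (SE 0.14) had an adjusted p of 0.142. Slc36a4, of the same family, overlapped at 23.6 to 29.5 and 20.5 to 25.3 CPM, with a log2 fold change of -0.18 (SE 0.16, adjusted p = 0.504), and Slc36a2 had at most 3 counts in any library. Slc38a7, which also encodes a lysosomal exporter, was per kb 1.32, 1.33 and 1.16 times Slc36a1 in control and 4.28, 4.22 and 4.12 times in IFNγR1KO libraries. The 3 IFNγR1KO libraries thus gave nearly the same ratio, well above that of each control. With Slc38a7 higher and Slc36a1 under all controls, this separation follows from the choice of pair, and it was not tested.

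By family, the median log2 fold change of the tested genes was 1.73 in SLC1 (2 of 5 genes tested), 1.09 in SLC3 (2 of 2), 0.81 in SLC7 (7 of 11), 0.72 in SLC6 (2 of 3), 0.35 in SLC38 (6 of 9), -0.26 in SLC36 (2 of 3) and -0.72 in SLC43 (2 of 3). Most of these medians rest on a pair of genes, and that of SLC6 leaves out Slc6a17 and Slc6a20b. Slc43a1 in SLC43 passed the filter on low counts only through the control libraries, and Slc7a9 in SLC7 only through the IFNγR1KO libraries. The summed level, which also weighs the genes by how much they were expressed, was 3.21 times the control mean in SLC1, 2.71 times in SLC3, 1.77 times in SLC7, 1.20 times in SLC38, 0.911 times in SLC6, 0.829 times in SLC36 and 0.797 times in SLC43. The groups overlapped in the sums of SLC6 and SLC43. Of the 13 genes not tested, 8 never exceeded 3 counts, and 5 of these had none. A count of 3 stood for 0.290 to 0.326 CPM in control and 0.406 to 0.426 CPM in IFNγR1KO libraries. This floor is a chosen setting and not a limit of detection.

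Other genes for amino acid carriers, taken from lists written by hand, gave few calls. Of 23 further carriers of the plasma membrane and lysosome, 6 were tested, with a median of 0.08 on the log2 scale, and none passed edgeR's test. At an unadjusted p under 0.05 the count was also 0, and DESeq2 made 0 calls. Among them were Slc6a17, the cystine exporter Ctns and the lysosomal carrier Pqlc2, also called Slc66a1. Of 13 mitochondrial amino acid carriers, 10 were tested, with a median of -0.15, and 1 passed. This was Sfxn2, a sideroflexin of the mitochondrial inner membrane, which had 229, 232 and 229 counts in control and 106, 123 and 116 in IFNγR1KO libraries and a log2 fold change of -0.54 (SE 0.15, adjusted p = 0.0286). Among the 313 SLC genes outside all of these lists, 161 were tested, of which 16 (9.94%) were higher and 7 (4.35%) lower, and their median was 0.04. These lists and the 36 transporter genes were chosen with earlier results of these data known, and the difference between them was not tested.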

How the data were processed

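Poly(A) RNA of 3 scrambled control and 3 IFNγR1KO cultures of B16-BL6 cells was sequenced with paired-end reads. The authors aligned reads to GRCm38 with STAR 2.7.5a and deposited the raw counts that htseq-count (HTSeq 0.11.2) gave for each gene, without normalization, and per the submitters' processing notes DESeq2 1.34.0 was used in the study. Annotation release and strand setting of the counting are not given in the sources used here. Rows naming no gene (reads without a feature, ambiguous or not unique) held 53.0% to 54.0% of a library and were left out.

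From the deposited counts, symbols, positions and exonic lengths were added from GENCODE M21 (GRCm38), which holds 55154 of 55335 identifiers. In R 4.3.3, edgeR 4.0.16 was used: filterByExpr (minimum count 10, minimum total 15), TMM, and the quasi-likelihood test on genotype with Benjamini-Hochberg adjustment. CPM are counts scaled by the total of the tested genes and TMM, so 1 count was 0.0966 to 0.109 CPM in control and 0.135 to 0.142 CPM in IFNγR1KO libraries. Overlap with genes on the other strand was taken over exonic bases. Counting intervals are exact binomial at 95%. Promoters came from RefSeq (GRCm38.p6). Replicates differed by more than counting noise (chi-square per degree of freedom 2.62 to 22.7). The tests were first tested on simulated counts. There edgeR recovered 43 of 100 genes with a log2 change of 0.7 and 93 of 100 with a change of 1.5. A gene that did not pass can therefore still differ.

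Alternatives were DESeq2 1.42.0, limma-voom (limma 3.58.1), other size factors, other filters, thinning to the smallest library, stricter thresholds and leaving out each library. The members and lists were chosen with earlier results of these data known. Every tested member was named, with up to 3 genes per further list and direction by adjusted p.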

Additional observations from a re-analysis of the deposited data

How the results depend on the processing

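Of the 13 transporter genes with an adjusted p under 0.05, 12 were also called by DESeq2 and 7 were called in all 6 fits that left out a library (Slc1a4, Slc1a5, Slc3a2, Slc6a9, Slc7a5, Slc7a11 and Slc38a7). Of the 8 DEGs among them, 6 were kept in those fits. Leaving out a library gave 7 to 11 transporter genes higher and 0 to 3 lower, 6 to 7 DEGs higher and 0 to 2 lower, and a median log2 fold change of 0.42 to 0.59. The lower count was 0 without IFNγR1KO library 11 and 1 without library 10, and of the lower DEGs 0 were left without library 11 and 1 without library 10 or control library 3. The log2 fold change of Slc43a2 ranged from -0.045 (without IFNγR1KO library 12) to 0.19, and was -0.03 without control library 2. At an adjusted p under 0.01, 0 transporter genes were lower. With no filter on low counts, 10 transporter genes were higher and 4 lower, of which 6 and 3 were DEGs. Tested against a log2 fold change of 1, 3 DEGs were higher and 0 lower. Without division by length, the log2 ratio of the summed level of all 36 genes was 0.65 in place of 0.84. Over all genes, 454 were higher and 417 lower at an adjusted p under 0.01, against 1054 and 1039, and 535 to 1372 and 457 to 1452 with a library left out. Among other amino acid carriers, 2 were lower by DESeq2, 0 at an adjusted p under 0.01 and 0 to 1 with a library left out. Of the other SLC genes, 7 were higher and 3 lower at an adjusted p under 0.01, 13 were lower with no filter on low counts, and 7 to 18 were higher and 3 to 11 lower with a library left out. In each case the cause was not tested. Other normalizations moved the median of all genes by at most 0.04 on the log2 scale. No paired analysis was possible because the groups share no replicate number. Every IFNγR1KO library held fewer counts than every control library, and with all libraries thinned to the smallest, 10 transporter genes were higher and 3 lower. The 13 genes with too few counts were not tested, and 5 of them had no count.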

Other observations

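Among the 161 tested SLC genes outside the lists of amino acid carriers, 3 higher and 3 lower genes are named here by their adjusted p (edgeR, quasi-likelihood test, Benjamini-Hochberg adjustment). Slc2a6, a glucose transporter family member found at the lysosome, was at 30.8 ± 4.48 CPM in control and 62.6 ± 7.80 CPM in IFNγR1KO cells (SD, n = 3), a log2 change of 1.02 (SE 0.16, adjusted p = 0.00115). Slc27a1, a fatty acid transport protein, and Slc25a47, a mitochondrial carrier known from liver, were higher by 1.14 (adjusted p = 0.00118) and 1.22 (adjusted p = 0.00198). On the other side, Slc39a10, a zinc importer, was at 38.8 ± 6.25 CPM in control and 20.3 ± 1.13 CPM in IFNγR1KO cells, with a log2 fold change of -0.93 (adjusted p = 0.00222). Slc25a10, the mitochondrial dicarboxylate carrier, and Slc25a34, a mitochondrial carrier with few counts, had log2 fold changes of -0.79 (adjusted p = 0.00503) and -2.12 (adjusted p = 0.00488).

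Control library 3 was the highest of its group for 12 of the 23 tested transporter genes, and IFNγR1KO library 12 for 14. Over all 13642 tested genes, these libraries were the highest for 5367 and 5603. Both held for 9 of the 23 transporter genes, or 39.1%, against 28.7% of all tested genes. The 2 groups share no replicate number, and the difference between these shares was not tested.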
